A study of Homo sapiens with 8 samples.

Results

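Transcripts of 10 genes whose proteins bind or are modified with O-GlcNAc transferase (OGT) were followed through 4 hours of OGT and CDK inhibition in LNCaP cells, an established human line derived from a nodal metastasis of prostate cancer. The genes were taken by symbol from the deposited table, namely HCFC1, HCFC2, TET1, TET2, TET3, BAP1, ASXL1, ASXL2, TRAK1 and TRAK2. All 10 were found among 55737 gene symbols, and all 10 averaged 10 normalised counts or more and so were among the 19393 genes tested. The set was named as partners of OGT by a rule without a measured value, although with earlier results of these data known. TRAK1 and TRAK2 are cytoplasmic proteins, so the set is not limited to chromatin.

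The 4 groups had 2 RNA sequencing libraries each. Cells received the combination of 0.5 µM AT7519 and 40 µM OSMI-2, 0.5 µM AT7519 alone, 40 µM OSMI-2 alone, or a control whose vehicle is not given in the sources used here. AT7519 inhibits several cyclin-dependent kinases, among them CDK9, and OSMI-2 inhibits the catalytic activity of OGT. The series addresses how far cells without OGT activity depend on CDK9. Doses are those of the series design, whereas the sample labels write them in mM. An agent described below as added to another refers to the combination set against that other agent, not to an order of treatment. The labels do not tell whether replicates came from separate cultures, so p-values reflect only the spread between libraries, which may be technical.

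OGT attaches a single N-acetylglucosamine to serines and threonines of nuclear and cytoplasmic proteins. It also cleaves the HCF-1 precursor, the product of HCFC1, within its repeats, which yields the joined subunits of mature HCF-1. HCF-1 tethers OGT and histone methyltransferases to transcription factors, TET enzymes bring OGT to chromatin while oxidising 5-methylcytosine, and BAP1 forms with an ASXL protein the PR-DUB complex that removes ubiquitin from histone H2A. TRAK adaptors link mitochondria to kinesin, and modification of TRAK1 by OGT slows mitochondrial movement in neurons.

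The libraries held between 60152710 and 154367238 reads assigned to genes. The name LNCaP comes from the sample labels. All 10 listed markers of luminal prostate cells, KLK3 among them, were above 100 normalised counts in every library, but such markers do not identify a cell line. Of 13 markers of basal, stromal, immune, endothelial and neuroendocrine cells, CDH5 was at 0 throughout. PTPRC, KRT5, CD3E, TP63, COL1A2 and CHGA stayed below 4 normalised counts, and CD68 reached 5.80. The basal keratin KRT14 had 40.0 to 104 and the neuroendocrine marker SYP 58.9 to 99.4, while VIM, COL1A1 and VWF were above 100 in every library. The share of counts from the 13 mRNAs of the mitochondrial genome was 7.33% to 7.73% in combination libraries, 6.57% to 7.04% with AT7519, 4.99% to 5.53% with OSMI-2 and 4.45% to 4.69% in control, so a change is always relative to a chosen scale. On the deposited scale the median tested gene changed by at most 0.036 (log2) in any comparison of groups. With libraries set to equal mitochondrial mRNAs, its change was -0.911 with AT7519, -0.947 with the combination (both against control) and -0.810 in the combination against OSMI-2. At equal totals these medians were -0.343, -0.234 and -0.295, and at equal upper quartiles 0.243, 0.312 and 0.326. In bulk RNA a smaller share of a transcript and less RNA per cell cannot be told apart.

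Levels between genes were compared per kilobase of merged exons (GENCODE release 29), a scale that takes the annotated length as the transcribed one. In control cells BAP1 had 1808 ± 57.0 normalised counts per kilobase, followed by TRAK2 with 807 ± 16.2 and HCFC1 with 597 ± 12.8 (SD, n = 2). ASXL2 (546 ± 33.9) and ASXL1 (538 ± 26.5) came next and lay within their spread of each other. TRAK1 (442 ± 0.15) and TET3 (411 ± 0.46) stood above TET2 (322 ± 31.7) and HCFC2 (288 ± 2.71), and the last pair lay about an SD of TET2 apart. TET1 was the lowest with 39.0 ± 0.09 per kilobase. With the combination BAP1 was still first with 2504 ± 82.5 and TET1 last with 22.8 ± 5.02. ASXL2 (189 ± 3.10), above TET2 in control, now lay below TET2 (203 ± 5.27), and the mean of HCFC2 (103 ± 11.8) stayed below that of TET2.

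**Figure D1:**
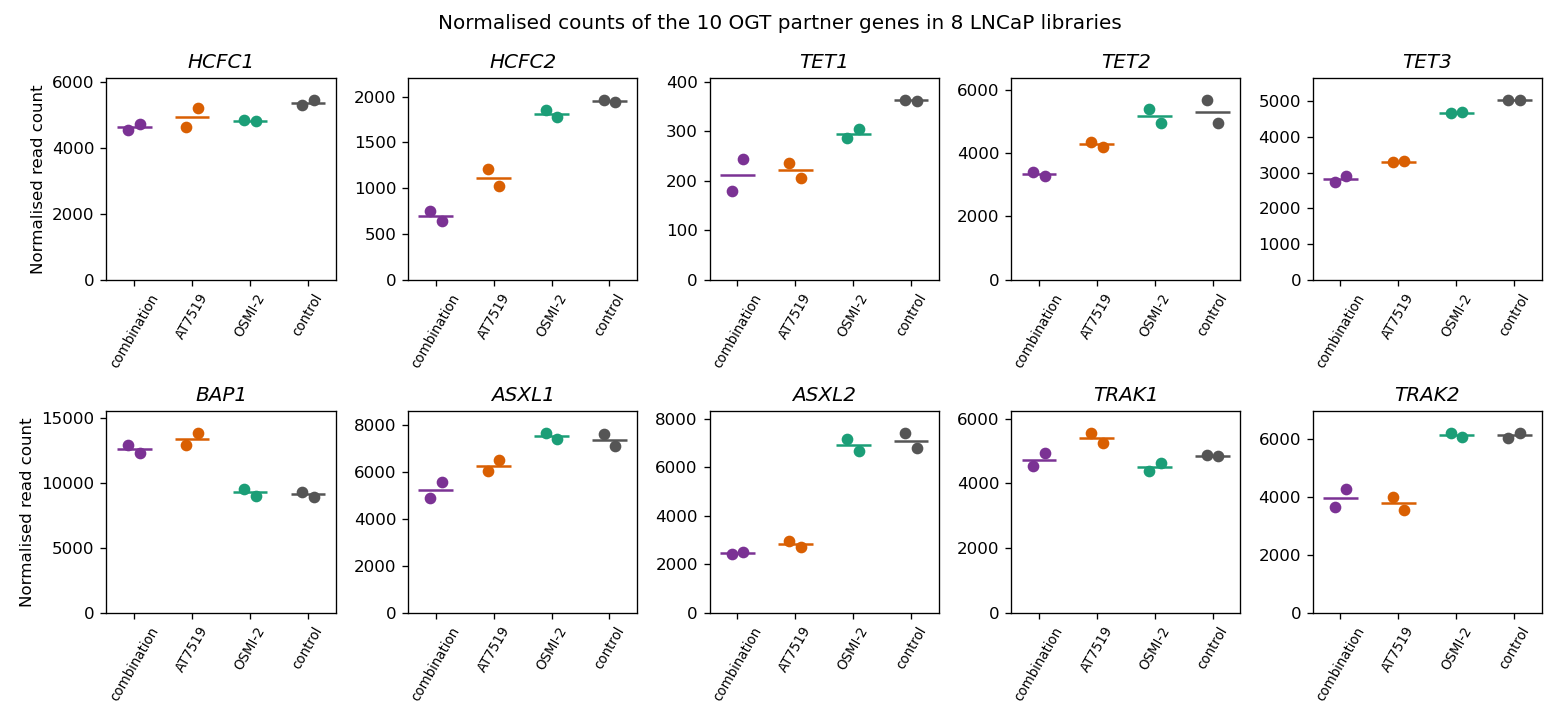
Normalised read counts (y axis from 0, a scale for each gene) of the 10 genes in the 4 groups, with a point per library and a bar at the mean of 2. HCFC2, ASXL2, ASXL1, TET1, TET2, TET3 and TRAK2 are lower in all 4 libraries with AT7519 than in the 4 without it. BAP1 is higher on this deposited scale, though lower at equal mitochondrial mRNAs, and HCFC1 and TRAK1 overlap. The share of all tested genes that separate in this way was not counted.

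Promoter sequences are shown for HCFC2 and ASXL2, whose transcripts had the deepest falls of the 10 with the combination, for ASXL1, the paralogue of ASXL2 with a shallower fall, and for TRAK2, which holds a match to the core site of THAP11 and ZNF143, both known to bind HCF-1. They are RefSeq windows on GRCh38.p14, from 250 bases before to 50 after the annotated start, and 8 of the 10 genes had an entry, all but HCFC1 and BAP1. Capitals mark matches on either strand to the GC box GGGCGG, the CCAAT box, the ETS core CCGGAAG, the E-box CACGTG and the THAP11/ZNF143 core ACTACAA.
HCFC2 promoter, chr12:104064281-104064580, plus strand: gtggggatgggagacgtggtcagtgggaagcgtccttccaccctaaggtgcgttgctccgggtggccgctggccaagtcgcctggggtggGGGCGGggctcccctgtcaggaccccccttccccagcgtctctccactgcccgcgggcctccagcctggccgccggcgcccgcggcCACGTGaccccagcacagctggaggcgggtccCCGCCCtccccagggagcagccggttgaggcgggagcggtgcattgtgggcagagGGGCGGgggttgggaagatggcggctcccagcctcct
ASXL2 promoter, chr2:25878438-25878737, minus strand: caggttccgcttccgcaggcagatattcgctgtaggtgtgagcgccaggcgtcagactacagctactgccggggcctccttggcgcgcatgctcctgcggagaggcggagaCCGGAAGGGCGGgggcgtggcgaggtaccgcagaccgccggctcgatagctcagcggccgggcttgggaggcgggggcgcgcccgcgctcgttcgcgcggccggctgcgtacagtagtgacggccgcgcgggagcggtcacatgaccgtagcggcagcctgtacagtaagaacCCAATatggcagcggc
ASXL1 promoter, chr20:32358081-32358380, plus strand: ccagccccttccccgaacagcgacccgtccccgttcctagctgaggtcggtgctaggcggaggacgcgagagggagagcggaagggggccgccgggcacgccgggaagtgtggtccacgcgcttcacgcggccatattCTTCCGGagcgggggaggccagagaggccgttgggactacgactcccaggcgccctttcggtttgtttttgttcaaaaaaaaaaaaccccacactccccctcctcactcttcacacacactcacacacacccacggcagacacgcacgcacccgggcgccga
TRAK2 promoter, chr2:201451409-201451708, minus strand: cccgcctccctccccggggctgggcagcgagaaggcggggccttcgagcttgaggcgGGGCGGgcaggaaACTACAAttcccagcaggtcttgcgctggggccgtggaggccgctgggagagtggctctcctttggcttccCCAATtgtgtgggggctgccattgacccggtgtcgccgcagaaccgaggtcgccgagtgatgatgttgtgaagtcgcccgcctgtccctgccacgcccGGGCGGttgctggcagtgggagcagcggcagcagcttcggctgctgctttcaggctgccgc

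A GC box was present in 5 of the 8 windows, against 68.2% of 10475 windows of tested genes, and a CCAAT box in 3 of 8, against 36.8%. An E-box lay in 3 of 8 windows (HCFC2, TET2 and TET3), against 10.1% of tested genes. The ETS core lay in 2 of 8, both ASXL genes, against 18.3%, and in ASXL2 it runs directly into the GC box. The THAP11/ZNF143 core lay in TRAK2 alone, against 3.78% of tested genes. The TATA box TATAAA, the NRF1 site and the CRE TGACGTCA, also searched on both strands, had no match in these 8 windows, against 5.90%, 11.3% and 3.05% of tested genes. GC content ranged widely, with 82.7% in TET3, 73.7% in HCFC2 and 47.7% in TET2, beside a median of 65.0% for tested genes. A match describes the letters only.

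Setting OSMI-2 against control asks what OGT inhibition alone did to the transcripts of its partners. None of the 10 was called by limma, where 3.02% of tested genes were. None reached an unadjusted p below 0.05 either, where 3450 of all genes did, and edgeR and DESeq2 on recovered reads called 0 of the 10. The median change of the 10 was -0.070 (log2), against -0.018 for all tested genes, and the smallest adjusted p was 0.397 (limma, Benjamini-Hochberg, as for all adjusted p-values below). HCFC1 had 4851 and 4811 normalised counts with OSMI-2, against 5293 and 5456 in control. Its groups did not overlap, nor did those of HCFC2, TET1, TET3 and TRAK1, and the share of all tested genes without overlap was not counted. The change of HCFC1 of -0.15 (SE 0.087, 95% interval -0.34 to 0.032) did not pass. TET1 had 287 and 303 with OSMI-2, against 363 and 362 in control (log2 change -0.30, 95% interval -0.72 to 0.12). TRAK2 had the value nearest 0 (log2 change 0.003, 95% interval -0.20 to 0.21). For the 9 genes other than TET1 the intervals lay between -0.37 and 0.23, so a halving or doubling lies outside them, and for TET1 the lower bound was -0.72.

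OGT itself rose under the same treatment, with 31597 and 30152 normalised counts with OSMI-2, against 24330 and 23509 in control (log2 change 0.37, SE 0.091, adjusted p = 0.0434). MGEA5, which encodes the enzyme that removes O-GlcNAc, fell in the same libraries (log2 change -0.39, adjusted p = 0.0221). Neither call was firm. OGT passed under 10 and MGEA5 under 12 of the 20 alternatives, and both calls ended without the variance trend, without a filter and without either control or either OSMI-2 library (adjusted p of up to 0.399 for OGT and 0.27 for MGEA5). The OGT call also ended without either combination library, at equal upper quartiles and at equal mitochondrial mRNAs, and the MGEA5 call at equal totals and after quantile normalisation. A difference between the partners and the enzymes was not tested.

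AT7519 alone, set against control, asks what CDK inhibition did. It lowered 7 of the 10 (27.2% of tested genes were lower) and BAP1 was higher (26% were higher). The median change of the 10 was -0.46, against -0.004 for all tested genes. On other scales 4 to 10 of the 10 were lower, from 4 at equal upper quartiles (with 2 higher) to 10 at equal mitochondrial mRNAs (with 0 higher). HCFC2, TET3, ASXL2 and TRAK2 were lower under each of the 20 alternatives. Each protein family is described in turn, and differences between its members were not tested.

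HCFC1 and HCFC2 encode the HCF proteins, of which HCF-1 is the one cleaved by OGT and HCF-2 is a shorter relative without the cleaved repeats. HCFC2 had 1205 and 1023 normalised counts with AT7519, against 1964 and 1938 in control. The AT7519 libraries were far below both controls, a fall of 1.76-fold (log2 change -0.81, SE 0.12, adjusted p = 7.57e-05). HCFC1 had 4649.9 and 5204 with AT7519, against 5293 and 5456 in control, and did not pass (log2 change -0.13, 95% interval -0.31 to 0.058, adjusted p = 0.233). Rescaled to equal totals, HCFC1 was lower with AT7519 (log2 change -0.47, adjusted p = 0.00049).

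The TET genes encode the dioxygenases of 5-methylcytosine. TET3 had 3299 and 3328 normalised counts with AT7519, against 5034 and 5042 in control, a fall of 1.52-fold (log2 change -0.60, SE 0.085, adjusted p = 3.71e-05). Its replicates were close, and the groups lay far apart. TET1, the lowest of the 10, had 236 and 205 with AT7519, against 363 and 362 in control (log2 change -0.72, SE 0.20, adjusted p = 0.00652). It rested on 134 to 617 reads per library. GENCODE places the pseudogene COX20P1 within TET1 on the same strand, and that symbol was listed at 948 and 949.7 with AT7519, against 648 and 743 in control (adjusted p = 0.00822), so reads there cannot be assigned with certainty. TET2 had 4343 and 4188 with AT7519, against 5671 and 4931 in control (log2 change -0.31, SE 0.094, adjusted p = 0.0122). The TET2 call was lost without control replicate 1 (adjusted p = 0.15), without AT7519 replicate 2 (adjusted p = 0.0515) and without the variance trend (adjusted p = 0.0534), and both TET2 (adjusted p = 0.591) and TET1 (adjusted p = 0.0537) did not pass at equal upper quartiles, nor did TET1 after quantile normalisation (adjusted p = 0.0629).

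BAP1, the deubiquitinase of the PR-DUB complex, went the other way from its ASXL cofactors. It had 12969 and 13882 normalised counts with AT7519, against 9341 and 8934 in control, 1.47-fold higher (log2 change 0.55, SE 0.077, adjusted p = 3.53e-05). Scaled to equal mitochondrial mRNAs, BAP1 was instead lower than in control (log2 change -0.36, adjusted p = 0.00708), which is still 0.55 above the median gene on that scale. ASXL2 had 2939 and 2725 with AT7519, against 7423 and 6799 in control, a fall of 2.51-fold (log2 change -1.33, SE 0.090, adjusted p = 8.84e-08). No other of the 10 fell as far with AT7519. Its paralogue ASXL1 had 6035 and 6516 with AT7519, against 7618 and 7105 in control (log2 change -0.23, SE 0.090, adjusted p = 0.0424). This call was lost without either control, either OSMI-2 library or AT7519 replicate 1 (adjusted p of 0.0611 to 0.221), without a filter, without the variance trend and in the 2 groups alone (0.0525 to 0.116), and at equal upper quartiles the value turned to 0.020.

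TRAK1 and TRAK2 encode the adaptors that join the mitochondrial GTPases RHOT1 and RHOT2 to kinesin. TRAK2 had 3989 and 3565 normalised counts with AT7519, against 6039.7 and 6213 in control, a fall of 1.62-fold (log2 change -0.70, SE 0.096, adjusted p = 2.99e-05). STRADB overlaps TRAK2 on the other strand and was not called (log2 change 0.14, adjusted p = 0.213). TRAK1 had 5554 and 5251 with AT7519, against 4858 and 4855 in control, higher in both libraries without passing (log2 change 0.15, 95% interval -0.032 to 0.34, adjusted p = 0.152). On other scales its value ranged from -0.76 (equal mitochondrial mRNAs, adjusted p = 7.75e-08) to 0.40 (equal upper quartiles, adjusted p = 0.00117).

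**Figure D2:**
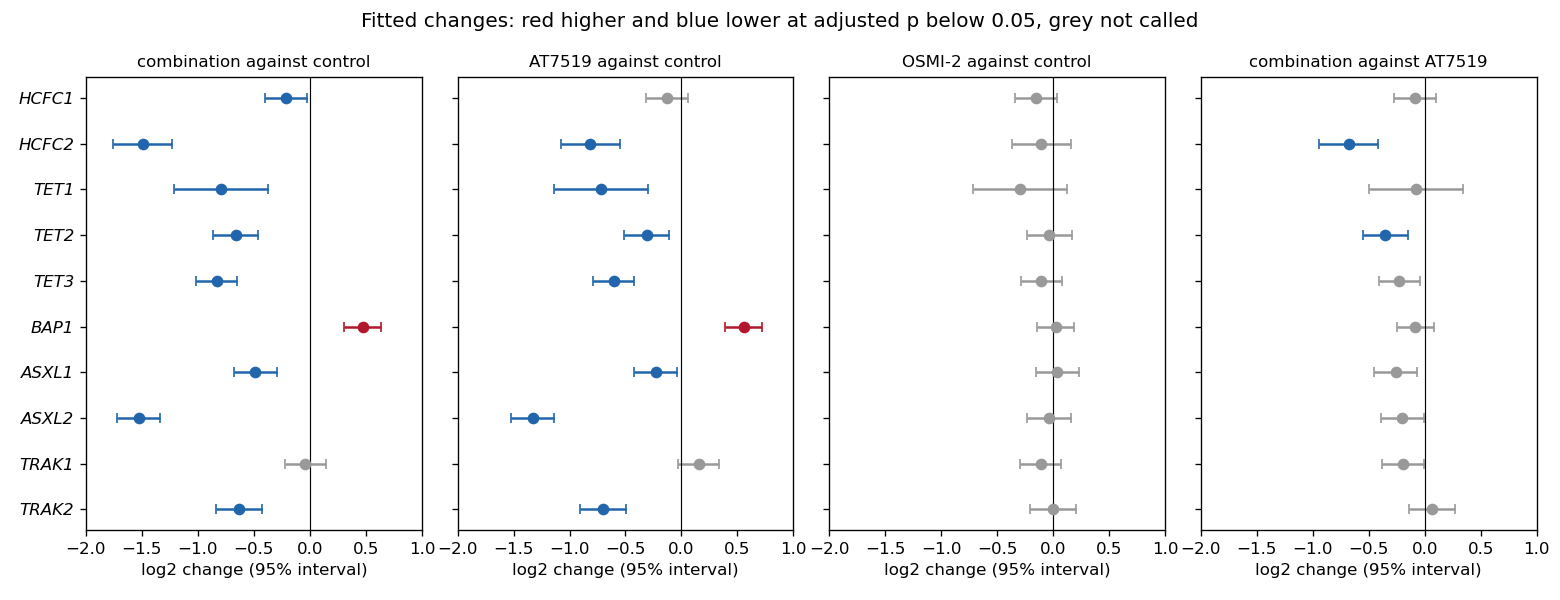
Log2 change (x axis) of each gene in 4 comparisons with its 95% interval from the shared limma fit, red for higher and blue for lower at an adjusted p below 0.05, and grey for genes that were not called. The OSMI-2 panel is grey for all 10, the panels against control with AT7519 or the combination are blue apart from BAP1, HCFC1 and TRAK1 (HCFC1 is blue for the combination), and BAP1 turns lower when scaled to mitochondrial mRNAs.

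Ratios within a library do not depend on how libraries are scaled. HCFC1 had 6.05 and 7.39 times the normalised count of HCFC2 with the combination, 3.86 and 5.09 with AT7519, 2.62 and 2.70 with OSMI-2 and 2.70 and 2.82 in control. ASXL1 over ASXL2 was 2.01 and 2.25 with the combination, 2.05 and 2.39 with AT7519, 1.07 and 1.11 with OSMI-2 and 1.03 and 1.04 in control. BAP1 over ASXL2 was 5.32 and 4.96 with the combination, 4.41 and 5.09 with AT7519, 1.33 and 1.35 with OSMI-2 and 1.26 and 1.31 in control. In these 3 ratios all 4 libraries with AT7519 lay above all 4 without it. TRAK1 over TRAK2 was 1.24 and 1.16 with the combination, 1.39 and 1.47 with AT7519, 0.704 and 0.762 with OSMI-2 and 0.804 and 0.781 in control, with the same order. TET3 over TET2 overlapped between libraries with and without AT7519, from 0.76 to 0.888 with it and from 0.866 to 1.02 without it. The ratios were not tested, and the share of other gene pairs that separate in this way was not counted. BAP1 over ASXL2 was chosen after its values were seen.

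**Figure D3:**
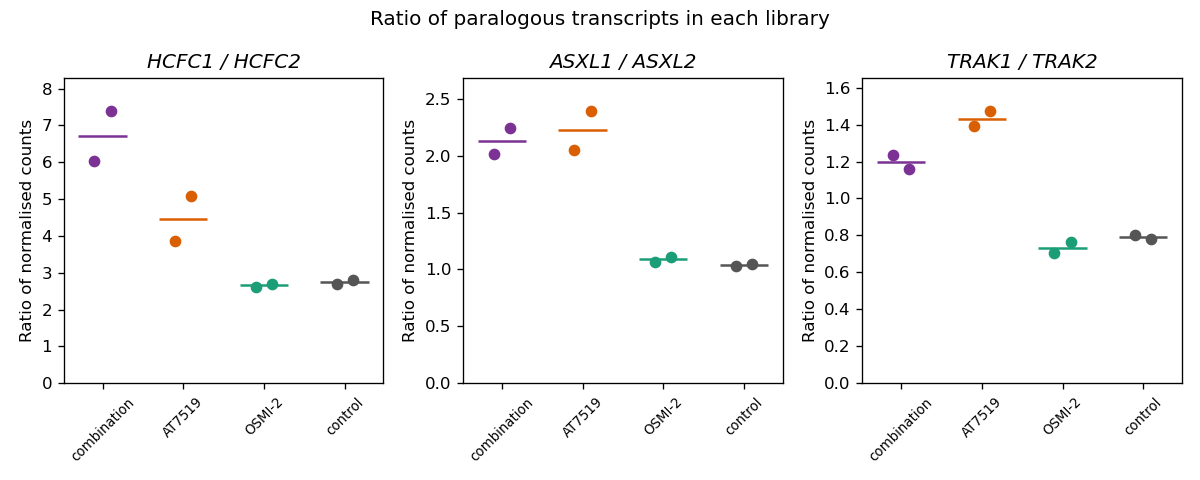
Ratio of normalised counts (y axis from 0) of HCFC1 to HCFC2, ASXL1 to ASXL2 and TRAK1 to TRAK2 in each library, with a bar at the mean of 2. Libraries with AT7519 lie above those without it in all 3 panels, and for HCFC1 to HCFC2 the combination lies above AT7519 alone. The share of other gene pairs that separate in this way was not counted.

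The 10 genes differ widely in span. BAP1 spans 9.34 kb and HCFC1 24.3 kb, HCFC2, TRAK2 and ASXL1 span 42.1, 74.4 and 81.0 kb, and the TET genes, ASXL2 and TRAK1 span 122 to 212 kb (GENCODE release 29). Among tested protein-coding genes the median log2 change with AT7519 was 0.22 for 2383 genes under 10 kb, 0.11 for 3625 genes of 10 to 30 kb, -0.057 for 4191 genes of 30 to 100 kb and -0.19 for 2544 genes over 100 kb. In the longest class 38.8% were lower and 16.4% higher, against 23.7% and 40.7% in the shortest. On the deposited scale BAP1 (0.55) and TRAK1 (0.15), the longest of the 10, lay above the median of genes of their span. The others lay below it, namely ASXL2 (-1.33), HCFC2 (-0.81), TET1 (-0.72), TRAK2 (-0.70), TET3 (-0.60), TET2 (-0.31), ASXL1 (-0.23) and HCFC1 (-0.13). The part of span in these changes was not tested.

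**Figure D4:**
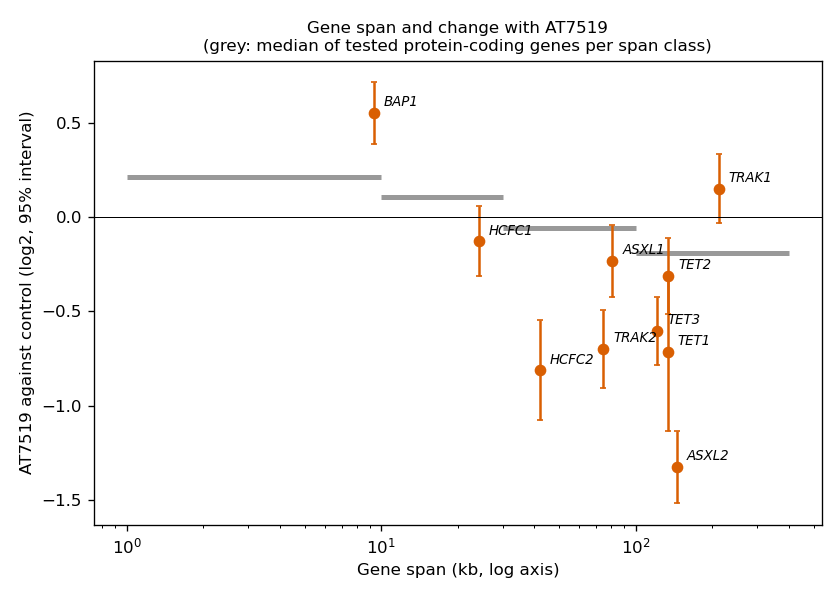
Log2 change with AT7519 against control (y axis, 95% interval) and gene span (x axis, kb, log scale) of the 10 genes, with grey bars at the median of tested protein-coding genes in 4 span classes (under 10, 10 to 30, 30 to 100 and over 100 kb). On the deposited scale BAP1 and TRAK1 lie above the bar of their class and the other genes below theirs, ASXL2 furthest.

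With the combination against control, 8 of the 10 were lower (27.6% of tested genes were) and BAP1 was higher (26.3% were). Their median change was -0.65, against 0.022 for all tested genes. At equal upper quartiles 6 were lower and 2 higher, and at equal mitochondrial mRNAs 10 were lower. ASXL2 had 2436 and 2493 normalised counts with the combination, against 7423 and 6799 in control, a fall of 2.88-fold (log2 change -1.53, SE 0.090, adjusted p = 1.7e-08). HCFC2 had 751 and 638 with the combination, against 1964 and 1938 in control, a fall of 2.81-fold (log2 change -1.49, SE 0.12, adjusted p = 2.62e-07). TET3 fell 1.78-fold, TET1 1.73-fold, TET2 1.58-fold, TRAK2 1.55-fold and ASXL1 1.40-fold (adjusted p of at most 0.00329). Of these, ASXL1 did not pass at equal upper quartiles (adjusted p = 0.0765). BAP1 had 12951 and 12361 with the combination, against 9341 and 8934 in control (log2 change 0.47, adjusted p = 0.000138, and -0.51 when scaled to mitochondrial mRNAs). HCFC1 had 4543 and 4718 with the combination, against 5293 and 5456 in control, and passed narrowly (log2 change -0.22, SE 0.087, adjusted p = 0.0488). That call ended without either control, either OSMI-2 or either combination library (adjusted p of 0.0713 to 0.184), as it did after quantile normalisation, without a filter, without the variance trend and in the 2 groups alone (0.0523 to 0.221), and at equal upper quartiles the value was 0.079. TRAK1 had 4521 and 4935 with the combination, against 4858 and 4855 in control, overlapping groups with a log2 change of -0.040 (95% interval -0.23 to 0.15). On other scales the value of TRAK1 ranged from -1.02 (equal mitochondrial mRNAs, adjusted p = 4.73e-13) to 0.25 (equal upper quartiles, adjusted p = 0.0211).

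The effect of AT7519 was also examined in the presence of OSMI-2. Set against OSMI-2, the combination lowered 7 of the 10 (27.3% of tested genes were lower) and BAP1 was higher (27.5% were). At equal upper quartiles 6 were lower and 3 higher, and at equal mitochondrial mRNAs 10 were lower. ASXL2 had 2436 and 2493 normalised counts with the combination, against 7184 and 6678 with OSMI-2, 2.81-fold lower (adjusted p = 2.15e-08). HCFC2 had 751 and 638 with the combination, against 1849.7 and 1779.8 with OSMI-2, 2.62-fold lower (adjusted p = 5.43e-07). TET3 fell 1.65-fold, TRAK2 1.56-fold, TET2 1.55-fold and ASXL1 1.44-fold (adjusted p of at most 0.000176). The call of TET1 (log2 change -0.50, adjusted p = 0.0442) ended without either control, either OSMI-2 library or combination replicate 1 (adjusted p of 0.0671 to 0.304), at equal upper quartiles, after quantile normalisation, without a filter, without the variance trend and in the 2 groups alone (0.0522 to 0.381). BAP1 was 1.36-fold higher (adjusted p = 0.000212), missed the threshold when totals were made equal (adjusted p = 0.263) and was lower on the mitochondrial scale (log2 change -0.41). HCFC1 (log2 change -0.061, 95% interval -0.25 to 0.12) and TRAK1 (0.071, 95% interval -0.11 to 0.26) did not pass on the deposited scale. Rescaled, HCFC1 ranged from -0.91 (equal mitochondrial mRNAs, adjusted p = 1.04e-10) to 0.23 (equal upper quartiles, adjusted p = 0.0399). TRAK1 ranged from -0.78 (adjusted p = 3.86e-08) to 0.36 (adjusted p = 0.00231) on the same 2 scales.

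The combination set against AT7519 asks what OGT inhibition did in the presence of AT7519. Here 2 of the 10 were lower, where 12.5% of tested genes were, and 0 were higher, where 7.21% were. HCFC2 had 751 and 638 normalised counts with the combination, against 1205 and 1023 with AT7519. The groups did not overlap, nor did those of TET2, TET3, BAP1, ASXL1, ASXL2 and TRAK1, and the share of all tested genes without overlap was not counted. The fall of HCFC2 was 1.60-fold (log2 change -0.68, SE 0.12, adjusted p = 0.00203). Of all tested genes, 5.90% had a lower value in this comparison. HCFC2 stayed called under each of the 20 alternatives. TET2 had 3402 and 3279 with the combination, against 4343 and 4188 with AT7519, a fall of 1.28-fold (log2 change -0.35, SE 0.094, adjusted p = 0.0177), and its call ended without AT7519 replicate 1 (adjusted p = 0.078) or combination replicate 2 (adjusted p = 0.103). It also ended at equal totals (adjusted p = 0.0635), after quantile normalisation (adjusted p = 0.122) and without the variance trend (adjusted p = 0.0977). Members that did not pass included ASXL1, with 4904 and 5597 with the combination, against 6035 and 6516 with AT7519 (log2 change -0.26, adjusted p = 0.0562), and TET3, with 2749.6 and 2912 with the combination, against 3299 and 3328 with AT7519 (-0.23, adjusted p = 0.0751). DESeq2 on recovered reads called both of them. ASXL2 (-0.20), TRAK1 (-0.19), HCFC1 (-0.088), BAP1 (-0.085), TET1 (-0.076) and TRAK2 (0.066) did not pass (adjusted p of at least 0.136). OGT rose in these libraries, with 38849 and 37923 with the combination, against 23384 and 29175 with AT7519 (log2 change 0.56, adjusted p = 0.000998), and did not pass without the variance trend (adjusted p = 0.061). MGEA5, lower with OSMI-2 alone, was not lower here (log2 change 0.21, adjusted p = 0.0896).

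The interaction of both agents tests whether the OSMI-2 change differed with and without AT7519. It was called for 0 of the 10, where 1.04% of tested genes were called, and 3 of the 10 (HCFC2, TET2 and ASXL1) had an unadjusted p below 0.05, as did 1962 of all tested genes. By edgeR 0 and by DESeq2 1 of the 10 was called. HCFC2 was changed by -0.68 with OSMI-2 on top of AT7519 and by -0.10 with OSMI-2 alone, an interaction of -0.58 (SE 0.18, 95% interval -0.95 to -0.20, adjusted p = 0.179 by limma and 0.0355 by DESeq2). In other terms, its log2 change with the combination was -1.49, while the changes with the single agents summed to -0.92. TET2 had an interaction of -0.32 (adjusted p = 0.411) and ASXL1 of -0.30 (adjusted p = 0.428). The other 7 ranged from -0.16 in ASXL2 to 0.22 in TET1 (adjusted p of at least 0.799). Outside the 10, the interaction of MGEA5 was called (0.60, adjusted p = 0.0243) and that of OGT was not (0.19, adjusted p = 0.742). The MGEA5 call ended without a filter, without the variance trend, and without either control, either OSMI-2 library or combination replicate 2.

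**Figure D5:**
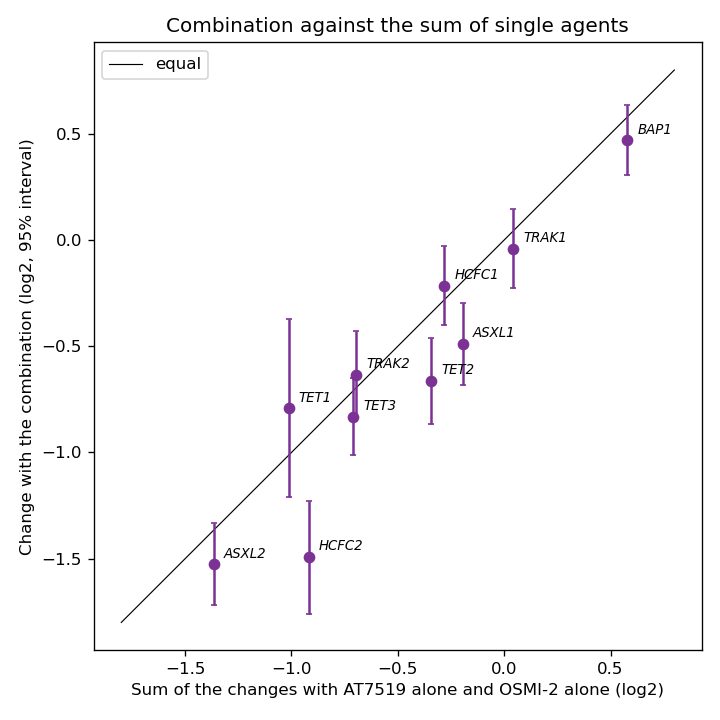
Log2 change with the combination (y axis, 95% interval of that change alone) and the sum of the changes with AT7519 alone and OSMI-2 alone (x axis) for the 10 genes, all against control, with a line where both are equal. HCFC2 lies below the line, at -1.49 against a sum of -0.92, and TET2 and ASXL1 lie below it by 0.32 and 0.30, without passing the interaction test.

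Partners of these proteins were listed in 8 groups of 97 genes, of which 94 were tested. Against control, AT7519 raised 23 and lowered 38 of them, with a median of -0.11, where 26% of all tested genes were higher and 27.2% lower. The number raised is near what the share over all tested genes gives. This split depended on the scaling: 42 rose and 28 fell with libraries set to equal upper quartiles, 7 rose and 60 fell with equal totals, and 0 rose and 89 fell with equal mitochondrial mRNAs. On the last of these scales MBD6, E2F4, CXXC1, HDAC1, IDH2 and RHOT2, given as higher below, had log2 changes between -0.55 and -0.047. OSMI-2 on top of AT7519 raised 8 and lowered 22 (11 and 16 at equal totals), where 7.21% of all tested genes were higher and 12.5% lower, with a median of -0.13 beside -0.017 for all tested genes. The counts of single lists below stand against the same shares, several are near them, and none is read as particular to its list. OSMI-2 alone raised PHC1 and lowered TDG and HDAC2, calls that all ended without a filter, without the variance trend and without either control or either OSMI-2 library, with TDG and HDAC2 also lost at equal totals and PHC1 at equal mitochondrial mRNAs. In the PR-DUB list AT7519 raised 1 and lowered 3 of 7. FOXK2, a forkhead factor that binds BAP1, fell 1.85-fold with AT7519 (adjusted p = 3.27e-06), and MBD6, a protein associated with PR-DUB, rose 1.29-fold (adjusted p = 0.0279), a call kept under 13 of the 20 alternatives and lost without control replicate 2 or AT7519 replicate 2. YY1, another partner of BAP1, fell 1.25-fold when OSMI-2 was added to AT7519 (adjusted p = 0.0113), and did not pass without AT7519 replicate 1 or combination replicate 1, without the variance trend or after quantile normalisation. Among PRC1 subunits, which write the ubiquitin mark that BAP1 removes, 2 rose and 10 fell of 19 with AT7519. RYBP fell 2.21-fold with AT7519 (adjusted p = 2.17e-06) and was 1.91-fold lower with the combination than with AT7519 alone (adjusted p = 0.000188). In that second comparison 3 PRC1 genes rose and 4 fell, and CBX7, which binds methylated histone H3, rose 1.58-fold (adjusted p = 0.000761).

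Of 15 transcription factors and coregulators that bind HCF-1, 6 rose and 7 fell with AT7519 and 5 fell when OSMI-2 was added to it. E2F4 rose 1.83-fold with AT7519 (adjusted p = 3.16e-05) and PPARGC1B fell 2.66-fold (adjusted p = 5.2e-06). THAP1, a zinc finger factor that recruits HCF-1 and OGT, had a mean of 431 with the combination, against 979 with AT7519, 2.27-fold lower (adjusted p = 8.0e-05). Its interaction was also called (log2 -1.07, adjusted p = 0.0153), as were those of CBX8 (-0.86, adjusted p = 0.0125) and RYBP (-0.75, adjusted p = 0.0436) among PRC1 subunits. All 3 interaction calls ended without the variance trend and without either control or either OSMI-2 library, which left THAP1 and CBX8 called under 14 of 19 alternatives. RYBP was called under 8 of 19, and its call also ended at equal upper quartiles, after quantile normalisation, without a filter and without AT7519 replicate 1 or either combination library. In the SET1/MLL list 2 rose and 5 fell of 10 with AT7519, with CXXC1 1.74-fold higher and WDR82 1.76-fold lower (adjusted p of at most 9.08e-06). In the SIN3 list 3 rose and 4 fell of 12, with HDAC1 1.55-fold higher and ARID4A 2.47-fold lower (adjusted p of at most 4.31e-06). SIN3A, the scaffold through which OGT joins that corepressor, fell 1.63-fold when OSMI-2 was added to AT7519 (adjusted p = 0.000567), while its paralogue SIN3B rose 1.31-fold (adjusted p = 0.0108). The SIN3B call ended without AT7519 replicate 1 or combination replicate 2, without the variance trend and at equal mitochondrial mRNAs. Of the 6 NSL subunits, a complex that also holds OGT and HCF-1, 1 rose and 2 fell with AT7519, and PHF20 was 1.82-fold lower (adjusted p = 9.55e-06).

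Of 15 genes of DNA methylation and demethylation, 6 rose and 4 fell with AT7519. IDH2, which supplies the cosubstrate of TET enzymes, rose 1.51-fold (adjusted p = 1.4e-05), and UHRF1, the adaptor of maintenance methylation, fell 1.79-fold (adjusted p = 1.55e-05). Of 10 tested genes of mitochondrial transport 2 rose and 3 fell. RHOT2, the outer membrane anchor of TRAK proteins, rose 1.63-fold (adjusted p = 7.57e-06), and SYBU, a kinesin linker, fell 2.03-fold (adjusted p = 1.81e-06). When OSMI-2 was added to AT7519, 2 of the methylation genes rose and 3 fell, and 2 of the transport genes rose and 2 fell. NEIL1, a DNA glycosylase, rose 1.45-fold (adjusted p = 0.0158) and CXXC5 fell 1.45-fold (adjusted p = 0.0198). HDAC6, a tubulin deacetylase, rose 1.31-fold (adjusted p = 0.0154) and SYBU fell 1.29-fold (adjusted p = 0.0225). The calls of these named genes all ended without AT7519 replicate 1 or combination replicate 2 and without the variance trend. That of HDAC6 also ended at equal mitochondrial mRNAs and that of SYBU at equal totals and without combination replicate 1. Those of CXXC5 and SYBU ended in the 2 groups alone.

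For each of the 10, the gene with the closest profile over the 8 libraries was found among 13043 candidates, by the root-mean-square difference of log2 levels after centring each gene on its mean. TET3 was closest to KIAA0586 (0.020), HCFC1 to LDB1 (0.029), BAP1 to SEC13 (0.030), TRAK1 to CLTC (0.034) and TRAK2 to FBXL4 (0.037). ASXL1 was closest to ZDHHC7 (0.050), TET2 to CSNK2A2 (0.052), TET1 to MMD (0.058), HCFC2 to ATF7IP (0.061) and ASXL2 to FOXO1 (0.062). Medians over candidates ran from 0.29 for TRAK1 to 0.76 for ASXL2. Within the 10, the nearest pair was TET2 and ASXL1 (0.10). HCFC2 and ASXL2 were each other's nearest but differed by 0.24.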

How the data were processed

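RNA was measured in 8 LNCaP libraries (strand-specific TruSeq kits, per the labels' protocols), 2 in each of 4 groups. The table holds a signal for each gene: read counts scaled by the authors with a size factor for each library, per the file headers and the values. STAR, HTSeq, DESeq2 and the builds hg19 and GRCh37 are named in the submitters' processing notes, with versions, annotation, filters and counting strand not given in these sources. Dividing each column by its smallest value above 0 gave whole reads for 100% of values (tolerance 0.01), and those reads fed edgeR (4.0.16) and DESeq2 (1.42.0) as alternatives. The 28 lines without a gene name were blank.

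Values were taken to log2 after adding 1, so a fold change is on that scale. Genes with a mean of at least 10 were fitted with limma (3.58.1, R 4.3.3) on the 4 groups with a variance trend, with 4 residual degrees of freedom. Tests were two-sided, Benjamini-Hochberg adjusted over 19393 genes, and called at an adjusted p below 0.05. The script was tested on simulated data. Members and lists were chosen with earlier results of these data known, so counts and medians stand beside those of all tested genes. Named genes were the 10 members, OGT, MGEA5, per list the largest called rise and fall with a mean of at least 50, and the closest profile of each member; some list genes are left out for brevity. Those chosen after their values were seen are the ratios of BAP1 to ASXL2, the genes with a called interaction beyond the rule (RYBP), the span classes and the overlapping genes COX20P1 and STRADB. Gene spans, exons and overlaps come from GENCODE release 29 by symbol, without positions, since the values rest on an older build. Intervals are 95% and unadjusted. Replicates differed by more than counting error (chi-square per degree of freedom of 19.9 to 31.1). Reads cannot show which strand was counted.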

Additional observations from a re-analysis of the deposited data

How the results depend on the processing

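Counts of members called were computed under 20 alternatives (19 for the interaction, where 2 groups alone give none). They stayed within 1.5 times the value above for OSMI-2 (0 in all), AT7519 (6 to 10), the combination against control (8 to 10) and against OSMI-2 (7 to 10). For the combination against AT7519 the count was 1 at equal totals, after quantile normalisation and without the variance trend, 4 by DESeq2, and 1 to 2 when single libraries were left out. For the interaction it was 1 by DESeq2 and 0 to 0 when single libraries were left out.

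Signs turned with the scale alone. At equal mitochondrial mRNAs BAP1 was -0.36 (AT7519), -0.51 (combination, both against control) and -0.41 (combination against OSMI-2), and TRAK1 was -0.76 with AT7519 and -0.78 in the combination against OSMI-2. At equal upper quartiles ASXL1 was 0.020 with AT7519, HCFC1 0.079 and TRAK1 0.25 with the combination, and HCFC1 0.23 in the combination against OSMI-2. At equal totals TRAK1 was -0.26 in that comparison. The cause was not tested. A sign that changed without passing either way is not counted.

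Over all genes, OSMI-2 called 586, with 0 without the variance trend, 101 without a filter, 262 at equal totals, 1271 at equal mitochondrial mRNAs, 1412 in 2 groups alone, 1496 by DESeq2 and 2 to 892 without single libraries. The combination against AT7519 called 3815, with 865 without the trend, 2428 in 2 groups alone and 1683 to 3860 without single libraries. The interaction called 201, with 0, 33 (no filter), 131 (quantiles), 558 (DESeq2) and 2 to 490. Libraries with the same replicate number had weak positive correlations of their deviations (0.021 to 0.12), and the main fit held no replicate block. With the replicate block the interaction called 404 genes, and 3 members, ASXL1 added (adjusted p = 0.0497), were called in the combination against AT7519. TET1, with 134 reads in its shallowest library, had the fewest reads of the 10, and the part of depth in its error was not tested.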
